A study of Mus musculus with 36 samples.

Results

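Kcnj10, Kcnj16, Kcnq1, Kcne1, Slc12a2, Bsnd, Slc26a4 and Esrrb are genes for ion transport in the lateral wall of the cochlea, most of them in the stria vascularis. They were chosen by name for this role and are 8 of the 39017 genes in the count table. All 8 passed the filter on low counts, as did 22556 genes in all. The tissue was whole cochlea of CBA/Sca mice aged 12 weeks, and RNA of adrenalectomized mice (ADX) was compared with RNA of sham-operated mice. Collection was at CT04, CT08, CT12, CT16, CT20 and CT24 of circadian time. Each status and time had 3 libraries, which gives 18 ADX and 18 sham libraries. Removal of the adrenal glands takes away the main source of corticosteroid hormones, and all mice of both groups went through surgery. The sources used here do not say whether each library came from its own animal. The p-values therefore measure only the spread between libraries, which may be technical.

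The stria vascularis is the epithelium that secretes potassium into the endolymph of the cochlear duct and generates the endocochlear potential, the positive voltage that drives current through the hair cells. Potassium enters the marginal cells through their basolateral membrane, carried by Na,K-ATPase and a cotransporter, and leaves them through an apical channel. Intermediate cells, which are melanocytes, hold the potassium channel that sets up most of the voltage. Loss of several of these genes causes deafness in humans and mice.

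The libraries held 20351081 to 28947793 counts in ADX and 18999408 to 28995197 in sham. Marker genes of marginal cells (9 of 9), intermediate cells (7 of 7), basal cells (3 of 3) and root and spindle cells (4 of 4) passed the filter, and none of them was at 0 over all libraries of either group. Some libraries stood apart from the rest. The skeletal muscle score, the mean centred log2 level of 9 muscle markers, was over 2 in ADX CT12 replicate 1, ADX CT16 replicate 2 and ADX CT20 replicate 3. Gh, the growth hormone gene of the pituitary, was over 50 CPM (counts scaled to a common library total) in 5 libraries, namely ADX CT24 replicates 1 and 2, sham CT08 replicates 2 and 3, and sham CT16 replicate 3, where it reached 1185 CPM. Sham CT12 replicate 1 had the highest level of all 36 libraries for 7 of the 8 ion transport genes.

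The sequence before the transcription start is shown for 3 of the genes, because Esrrb encodes a nuclear receptor and the other genes of the set vary together across libraries. RefSeq promoter windows on build GRCm38.p6, each from 250 bases before to 50 bases after a start, were matched by symbol for 4 of the 8 genes (Kcnj10, Kcnj16, Slc26a4 and Esrrb), with 8 windows in all. The windows were searched on both strands for the E-box CACGTG and the D-box TTATGTAA of the circadian clock. They were also searched for the oestrogen-related receptor element TNAAGGTCA, the ROR element (A, any 2 bases, TAGGTCA), which shares the letters AGGTCA with it, and the glucocorticoid response element (AGAACA, any 3 bases, TGTTCT) with its looser form (AGNACA, any 3 bases, TGTNCT). The 250 bases before the start follow in lower case, 5′ to 3′ on the gene's strand, with the only match in capitals.
Kcnj16, plus strand, chr11:110967783-110968032: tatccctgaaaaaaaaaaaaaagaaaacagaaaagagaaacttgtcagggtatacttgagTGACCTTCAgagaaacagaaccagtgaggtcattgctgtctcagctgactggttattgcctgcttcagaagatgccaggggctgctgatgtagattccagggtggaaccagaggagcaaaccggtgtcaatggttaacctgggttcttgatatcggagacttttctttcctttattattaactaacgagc
Slc26a4, minus strand, chr12:31559985-31560234: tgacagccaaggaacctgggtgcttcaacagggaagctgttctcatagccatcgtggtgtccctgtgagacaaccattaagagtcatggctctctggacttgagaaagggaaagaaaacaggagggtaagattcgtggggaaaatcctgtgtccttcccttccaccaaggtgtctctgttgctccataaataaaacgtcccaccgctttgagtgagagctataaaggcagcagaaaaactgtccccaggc
Esrrb, plus strand, chr12:86360867-86361116: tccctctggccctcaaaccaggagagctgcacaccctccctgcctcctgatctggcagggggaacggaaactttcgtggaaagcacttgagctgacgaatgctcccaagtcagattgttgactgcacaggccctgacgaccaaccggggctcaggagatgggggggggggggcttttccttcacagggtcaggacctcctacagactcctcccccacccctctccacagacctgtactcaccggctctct

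The single match, TGACCTTCA in the Kcnj16 window, is the oestrogen-related receptor element read on the opposite strand, starting 190 bases before the start. Of 32851 windows of the same length, 1.28% held this element. The E-box was in 7.15% of them, the D-box in 0.938%, the ROR element in 0.7%, and the glucocorticoid element in 0.00913% (0.0639% in its looser form). The other 7 windows of the 4 genes held none of these letters, and such a match describes the letters and not a bound site.

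The abundance of the 8 transcripts, per length, ran over a wide range. In TPM, a level per transcript length computed from the counts and the gene lengths in the table, the means over all 36 libraries were 159 ± 15.6 for Slc12a2, 97.7 ± 13.2 for Kcne1, 87.8 ± 9.99 for Kcnj10 and 79.1 ± 9.96 for Kcnj16 (SD, n = 36). They were 74.5 ± 9.97 TPM for Slc26a4, 60.8 ± 9.98 TPM for Esrrb, 22.3 ± 2.81 TPM for Kcnq1 and 4.72 ± 0.740 TPM for Bsnd (SD, n = 36). Slc12a2 was above Kcne1 in 36 of 36 libraries, Esrrb above Kcnq1 in 36 and Kcnq1 above Bsnd in 36. The genes in the middle of the order were closer: Kcne1 was above Kcnj10 in 32 of 36 libraries, Kcnj10 above Kcnj16 in 32, Kcnj16 above Slc26a4 in 28 and Slc26a4 above Esrrb in 28. In each of these pairs the ranges over the libraries overlapped.

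**Figure D1:**
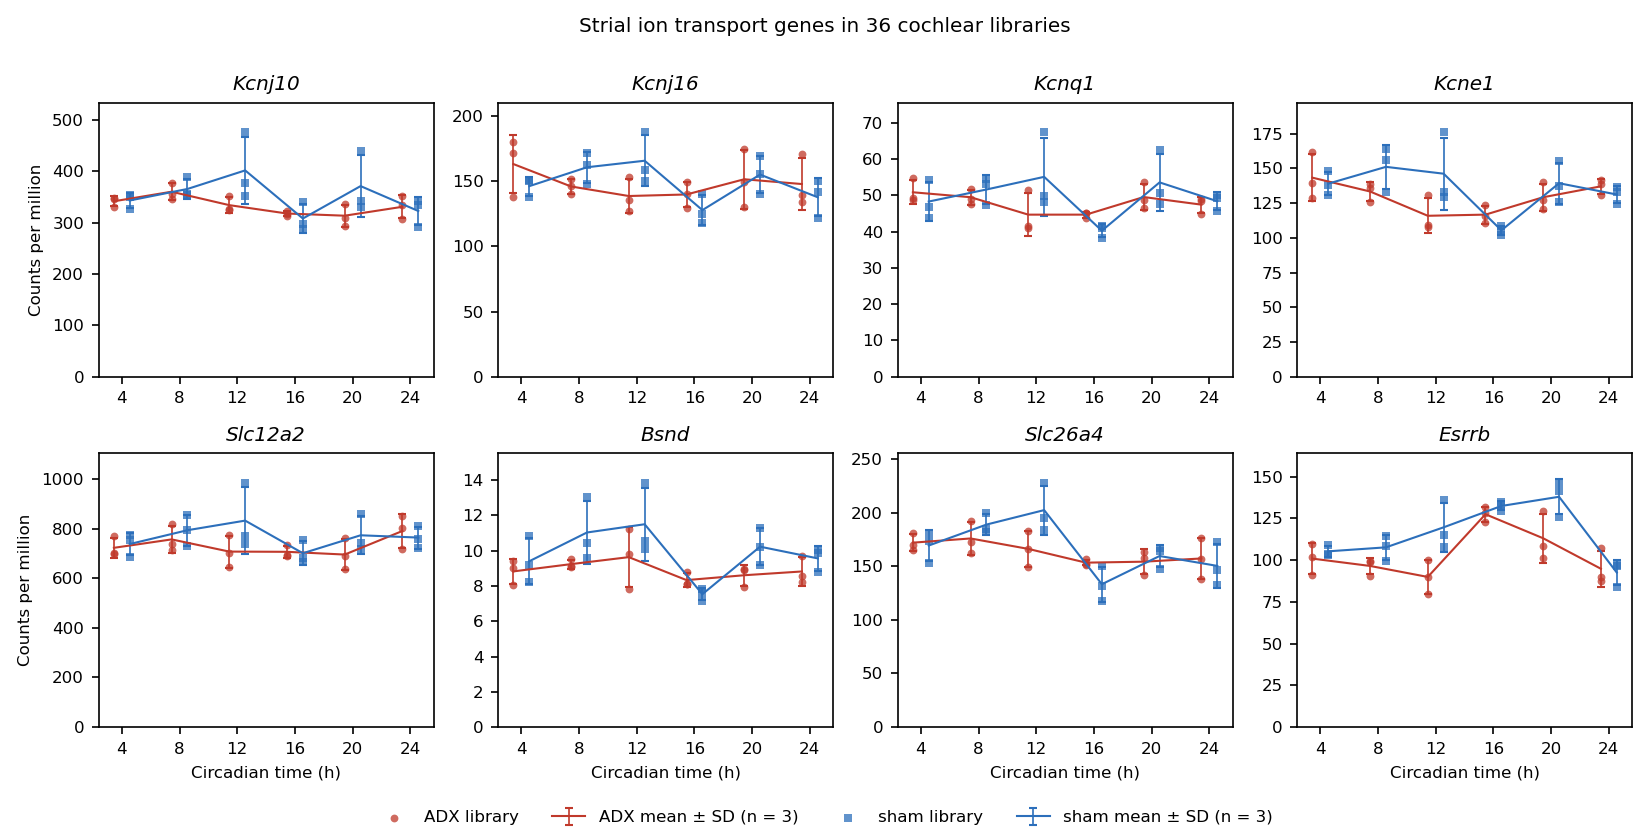
CPM of the 8 genes by circadian time, 1 point per library, ADX (circles, left) and sham (squares, right), with lines through the group means and bars of 1 SD (n = 3 libraries per point). Every panel starts at 0. The 18 ADX and 18 sham libraries overlap for each gene, and sham CT12 replicate 1 is the highest square in every panel but that of Esrrb.

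The first comparison asked whether the genes differ between ADX and sham cochleae over the mean of the 6 times. All 8 had a lower fitted level in ADX, by small amounts, and none passed the test. With edgeR's quasi-likelihood test and Benjamini-Hochberg adjustment over all 22556 genes, 0 of the 8 genes had an adjusted p under 0.05, beside 0.718% of all genes tested. At an unadjusted p under 0.05 there were 2 of the 8, Bsnd and Esrrb, beside 15.6% of all genes. DESeq2 called 1 of the 8, Esrrb, and 630 genes in all. A negative log2 fold change was found for 8 of 8 genes and for 49.3% of all genes, and the median was -0.07 over the 8 genes and 0.00114 over all genes. These signs are not independent, as the genes other than Esrrb varied together between libraries. Without sham CT12 replicate 1 the log2 fold change was -0.02 for Kcnq1, -0.04 for Kcne1, -0.05 for Kcnj10 and 0.01 for Kcnj16. It stayed negative for Slc12a2 (-0.05), Bsnd (-0.11) and Esrrb (-0.14). That of Slc26a4 was -0.044 to -0.006 whichever library was left out. In a whole cochlea, fewer cells of a type and less RNA per cell cannot be told apart.

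The apical potassium channel of the marginal cell is made of Kcnq1, its pore subunit, and Kcne1, its accessory subunit. Kcnq1 lay between 40.9 and 54.7 CPM with a median of 48.6 in the 18 ADX libraries, against 38.2 to 67.5 CPM with a median of 48.8 in the 18 sham libraries. Kcne1 lay between 108 and 162 CPM with a median of 129.7 in the 18 ADX libraries, against 102 to 176 CPM with a median of 133 in the 18 sham libraries. For both subunits the highest and the lowest library were sham, and the ADX range lay inside the sham range. The log2 fold change, ADX minus sham, was -0.05 ± 0.04 (SE) for Kcnq1 (95% confidence interval -0.13 to 0.04, edgeR adjusted p = 0.661). That of Kcne1 was -0.06 ± 0.04 (SE) (interval -0.15 to 0.02, edgeR adjusted p = 0.501). Kcnq1, on chromosome 7 from 143106362 to 143427042 on the plus strand (GENCODE M21, build GRCm38, as for all positions given here), overlaps the exons of the antisense gene Kcnq1ot1 by 121 bases. No source used here gives the strand setting of the counting, so its counts are uncertain to that extent. Kcne1 lies on chromosome 16 from 92345982 to 92359468 on the minus strand.

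On the basolateral side of the marginal cell, Slc12a2 encodes the sodium, potassium and chloride cotransporter NKCC1, and Bsnd encodes barttin, the subunit that the ClC-K chloride channels need to reach the membrane. Slc12a2 lay between 638 and 851 CPM with a median of 715 in the 18 ADX libraries, against 664 to 986 CPM with a median of 755 in the 18 sham libraries. Bsnd lay between 7.85 and 11.23 CPM with a median of 8.95 in the 18 ADX libraries, against 7.17 to 13.9 CPM with a median of 9.96 in the 18 sham libraries. The groups overlapped for both genes, and the ADX libraries of Bsnd ended lower, with 11.23 CPM as their highest value against 13.9 CPM in sham. The means of Bsnd were 8.91 ± 0.854 CPM in ADX and 9.88 ± 1.74 CPM in sham (SD, n = 18 each). Its log2 fold change was -0.14 ± 0.05 (SE) (interval -0.24 to -0.03), which had an unadjusted edgeR p of 0.0149 and an adjusted p of 0.19. The mean level of Bsnd was lower in ADX at 5 of 6 times. That of Slc12a2 was lower at 4 of 6 times, with a log2 fold change of -0.07 ± 0.04 (SE) (interval -0.15 to 0.01, edgeR adjusted p = 0.384). Slc12a2 lies on chromosome 18 from 57878678 to 57946821 (plus strand), and Bsnd lies on chromosome 4 from 106483456 to 106492283 (minus strand).

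Kcnj10 encodes the inwardly rectifying potassium channel of the intermediate cells on which the endocochlear potential depends, and it is also expressed in glia and supporting cells. Kcnj16 encodes a subunit that assembles with it into mixed channels. Kcnj10 lay between 294 and 378 CPM with a median of 332 in the 18 ADX libraries, against 287 to 476 CPM with a median of 346 in the 18 sham libraries. Kcnj16 lay between 128 and 180.1 CPM with a median of 144 in the 18 ADX libraries, against 118 to 188 CPM with a median of 150.2 in the 18 sham libraries. The ADX libraries of Kcnj10 lay within the range of the sham libraries, and 2 sham libraries, CT12 replicate 1 at 476 CPM and CT20 replicate 2 at 439.9 CPM, stood above the rest. The log2 fold change of Kcnj10 was -0.08 ± 0.04 (SE) (interval -0.16 to 0.0031, edgeR adjusted p = 0.342). For Kcnj16 it was -0.01 ± 0.05 (SE) (interval -0.10 to 0.09, edgeR adjusted p = 0.965), and it was 0.01 without the 5 libraries with Gh over 50 CPM. Kcnj10 lies on chromosome 1 from 172341210 to 172374085 and Kcnj16 on chromosome 11 from 110968033 to 111027968, both on the plus strand.

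Slc26a4 encodes pendrin, a chloride and bicarbonate exchanger of the spindle and root cells beside the stria. Slc26a4 lay between 138 and 193 CPM with a median of 163 in the 18 ADX libraries, against 118 to 228 CPM with a median of 169.8 in the 18 sham libraries. The ADX libraries lay within the sham range, and the log2 fold change was -0.02 ± 0.04 (SE) (interval -0.11 to 0.06, edgeR adjusted p = 0.835). Slc26a4 lies on chromosome 12 from 31519827 to 31559969 on the minus strand.

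Esrrb encodes an orphan nuclear receptor of the oestrogen-related family, which in mice is needed for the development of marginal cells. Esrrb lay between 79.96 and 132 CPM with a median of 101 in the 18 ADX libraries, against 84.2 to 147 CPM with a median of 112 in the 18 sham libraries. The ranges overlapped, with the ADX libraries shifted to lower values and means of 104 ± 15.5 CPM in ADX and 116 ± 17.8 CPM in sham (SD, n = 18 each). The log2 fold change of -0.16 ± 0.04 (SE) corresponds to a level 10.2% lower in ADX (interval of the log2 value -0.24 to -0.08), with an unadjusted edgeR p of 0.000388 and an adjusted p of 0.0511. The mean was lower in ADX at 5 of 6 times. The adjusted p lay beside the threshold and its side depended on the settings. Over the 36 fits that each left out 1 library, it was 0.0281 to 0.0964 and under 0.05 in 8, those without replicate 1 of ADX CT08, CT12 or CT20, replicate 3 of ADX CT24, replicate 2 of sham CT08 or CT12, or replicate 1 of sham CT16 or CT20. With DESeq2's size factors in edgeR it was 0.0425. It was 0.00851 with DESeq2, 0.047 in edgeR without the 3 muscle-high libraries and 0.252 in edgeR without the 5 libraries of high Gh, where the log2 fold change was -0.13. Esrrb lies on chromosome 12 from 86361117 to 86521628 on the plus strand.

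**Figure D2:**
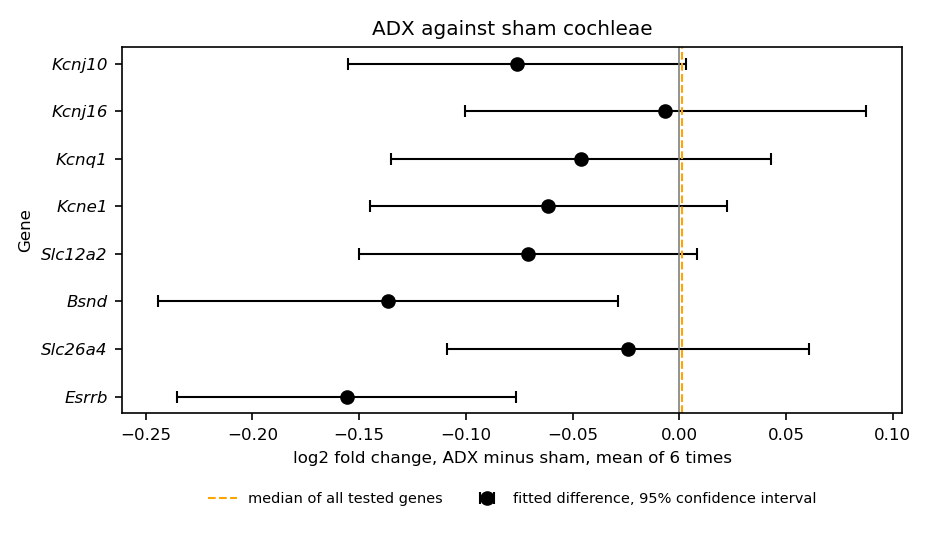
Fitted log2 fold change, ADX minus sham, over the mean of the 6 times for the 8 genes, with 95% confidence intervals from the edgeR fit on 36 libraries. The dashed line is the median of all 22556 genes tested. All 8 points lie left of 0, and the intervals of Bsnd and Esrrb do not reach it.

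Negative fold changes were also found for markers of other cell types, in and outside the stria. Among all genes tested, 49.3% had a negative log2 fold change and 0.718% were called. Markers of 1 cell type may vary together, so the signs within a list cannot be taken as independent. Of 9 marginal cell markers, 4 of which belong to the 8 genes, 9 had a negative log2 fold change (median -0.09). Their summed level was 1782 to 2329 CPM in ADX and 1842 to 2709 CPM in sham. Of 7 intermediate cell markers, 7 had a negative value (median -0.14), with summed levels of 581 to 839 CPM in ADX and 607 to 1032 CPM in sham. None of these 16 passed the test. The median log2 fold change was -0.02 for 3 basal cell markers (3 negative) and -0.01 for 4 root and spindle cell markers (2 negative), one of which is Slc26a4. Outside the stria it was -0.32 for 6 osteoblast markers (6 negative, 2 called), -0.19 for 7 neutrophil markers (7 negative) and -0.17 for 6 erythroid markers (6 negative). It was 0.31 for 5 B lymphocyte markers (0 negative, 1 called), 0.13 for 5 neuron markers and 0.08 for 4 Schwann cell markers. Nearer 0 were 6 spiral ligament fibrocyte markers (-0.02, 5 negative), 6 supporting cell markers (-0.03, 5 negative) and 6 hair cell markers (-0.01, 4 negative). The median was 1.29 for 9 skeletal muscle markers (1 negative), and the 3 muscle-high libraries were all ADX. For 5 pituitary markers it was -0.74 (5 negative), and for 2 markers of otoconia and vestibule -0.34 (1 negative). No marker of these lists was at 0, and their part in the result was not tested.

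The second comparison asked whether the difference between ADX and sham depends on the circadian time. The test of the interaction between status and time called 0 of the 8 genes and 0 genes in all (0%), with 1089 genes (4.83%) at an unadjusted p under 0.05 and 6 genes called by DESeq2. There were 3 of the 8, Kcne1, Slc26a4 and Esrrb, at an unadjusted p under 0.05, each with an edgeR adjusted p of 0.969.

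The values at single times are given as a description. At CT16 all 3 ADX libraries were above all 3 sham libraries for 4 of the 8 genes, Kcnq1, Kcne1, Bsnd and Slc26a4, beside 7.1% of all genes. These 4 genes varied together between libraries, so they are not independent cases. Kcnq1 had 43.8, 45.3 and 45.1 CPM in ADX against 38.2, 41.5 and 41.1 CPM in sham, and Bsnd had 8.12, 8.79 and 8.09 CPM in ADX against 7.17, 7.60 and 7.83 CPM in sham. Sham CT16 replicate 3 is the library with the highest Gh, whose part in these values was not tested. At CT12 all 3 ADX libraries were below all 3 sham libraries for Slc26a4 and Esrrb, 2 of the 8 genes beside 5.34% of all genes. Bsnd was the only one of the 8 genes with ADX wholly below sham at CT08 (3.93% of all genes) and at CT20 (4.13% of all genes). At CT08 it had 9.11, 9.54 and 9.07 CPM in ADX against 13.1, 9.61 and 10.4 CPM in sham. At CT20 it had 8.91, 8.98 and 7.94 CPM in ADX against 10.2, 11.29 and 9.20 CPM in sham. At CT04 and CT24 the groups overlapped for all 8 genes. Among all genes, ADX was wholly below sham for 8.46% at CT04 and 6.01% at CT24, and wholly above it for 8.07% and 6.03%. None of the 8 had ADX wholly above sham at CT08 (4.45% of all genes), CT12 (5.09%) or CT20 (5.12%), or wholly below it at CT16 (6.49%).

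The third comparison asked how the genes vary over the circadian day. A cosine with a period of 24 h was fitted to each status, and its peak-to-trough range is given on the log2 scale. Errors of ranges and peak times are standard errors. The fitted peaks were spread over the day, in the average of both statuses at 4.29 h for Kcne1, 8.09 h for Slc26a4 and 16.9 h for Esrrb. A cosine averaged over both statuses was called for 3 of the 8 genes (Esrrb, Slc26a4 and Kcne1), beside 32.5% of all genes tested. In ADX alone 0 of the 8 were called, beside 9.4% of all genes. At an unadjusted p under 0.05 there were 2 of the 8 (Kcne1 and Esrrb) and 25.4% of all genes. DESeq2 also called 0 of the 8 in ADX, and its share of all genes is not given here. In sham alone 2 of the 8 were called (Esrrb and Slc26a4), beside 16.08% of all genes. For a set of 8 genes these counts lie near the shares of all genes. The median fitted range was 0.18 in ADX and 0.22 in sham over the 8 genes, and 0.18 in ADX and 0.22 in sham over all genes tested. Over the 17711 tested genes of at least 1 CPM it was 0.15 in ADX and 0.17 in sham.

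Slc26a4 had its highest group mean in ADX at CT08, 176 ± 15.17 CPM, and in sham at CT12, 202 ± 22.9 CPM (SD, n = 3). At CT04 it had 165, 170.1 and 181 CPM in ADX against 153, 181 and 174 CPM in sham. At CT08 it had 193, 163 and 172 CPM in ADX against 199.96, 182 and 185 CPM in sham. At CT12 it had 183, 166 and 149 CPM in ADX against 228, 195 and 184 CPM in sham. The sham libraries of CT08 and CT12 were all at or above 182 CPM. At CT16 it had 151, 156 and 152 CPM in ADX against 150.2, 118 and 132 CPM in sham. At CT20 it had 164, 158 and 142 CPM in ADX against 148, 167 and 164 CPM in sham. At CT24 it had 138, 157 and 177 CPM in ADX against 172, 133 and 146 CPM in sham. In ADX the values of CT16 were close to one another, and in sham CT16 had the lowest mean. The fitted range was 0.21 ± 0.10 in ADX (peak at 7.103 ± 1.77 h, edgeR adjusted p = 0.309) and 0.42 ± 0.10 in sham (peak at 8.59 ± 0.909 h, edgeR adjusted p = 0.00949). In the average of both it was 0.31 ± 0.07 with a peak at 8.09 ± 0.865 h (edgeR adjusted p = 0.00323). In a fit on the 18 sham libraries alone, the adjusted p of the sham cosine was 0.0545.

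Kcne1 had its highest group mean in ADX at CT04, 143 ± 16.8 CPM, and in sham at CT08, 151 ± 15.9 CPM (SD, n = 3). At CT04 it had 139.7, 129 and 162 CPM in ADX against 131, 148 and 138 CPM in sham. At CT08 it had 139, 136 and 126 CPM in ADX against 156, 133 and 164 CPM in sham. At CT12 it had 131, 109 and 108 CPM in ADX against 176, 129 and 133 CPM in sham. In ADX the highest library was at CT04, and in sham it was replicate 1 at CT12. At CT16 it had 111, 124 and 116 CPM in ADX against 109, 105 and 102 CPM in sham. At CT20 it had 139.96, 127 and 120.5 CPM in ADX against 126, 155 and 137 CPM in sham. At CT24 it had 139, 131 and 141 CPM in ADX against 137, 124 and 133 CPM in sham. The 3 sham libraries of CT16 were the lowest of the 18 and below all 3 ADX libraries of that time. The fitted range was 0.31 ± 0.10 in ADX (peak at 2.59 ± 1.20 h, edgeR adjusted p = 0.0861) and 0.28 ± 0.10 in sham (peak at 6.195 ± 1.33 h, edgeR adjusted p = 0.106). The average of both had a range of 0.27 ± 0.07 and a peak at 4.29 ± 1.002 h (edgeR adjusted p = 0.0126). In a fit on the 18 ADX libraries alone, the ADX cosine had an adjusted p of 0.0153. Without sham CT12 replicate 1 the adjusted p was 0.0408 in ADX and 0.0482 in sham, and without sham CT20 replicate 2 it was 0.0194 in sham.

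Esrrb had its highest group mean in ADX at CT16, 128 ± 4.47 CPM, and in sham at CT20, 138 ± 10.6 CPM (SD, n = 3). At CT04 it had 91.2, 102 and 109.9 CPM in ADX against 104, 109 and 103 CPM in sham. At CT08 it had 99.1, 99.8 and 90.8 CPM in ADX against 115, 99.7 and 109 CPM in sham. At CT12 it had 100.2, 89.7 and 79.96 CPM in ADX against 136, 108 and 115 CPM in sham. At these 3 times all ADX libraries were at or below 109.9 CPM. At CT16 it had 128, 132 and 123 CPM in ADX against 129.6, 133 and 135 CPM in sham. At CT20 it had 129, 109 and 101 CPM in ADX against 126, 147 and 141 CPM in sham. At CT24 it had 87.4, 90.1 and 107 CPM in ADX against 96.996, 84.2 and 96.6 CPM in sham. The 3 ADX libraries of CT16 lay above all ADX libraries of other times except CT20 replicate 1, and in sham the CT24 libraries were the 3 lowest. The fitted range was 0.33 ± 0.11 in ADX (peak at 18.1 ± 1.25 h, edgeR adjusted p = 0.09) and 0.46 ± 0.11 in sham (peak at 16.04 ± 0.891 h, edgeR adjusted p = 0.00848). In the average of both it was 0.38 ± 0.08 with a peak at 16.9 ± 0.761 h (edgeR adjusted p = 0.000727).

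The cosines of the other 5 genes were not called in ADX, in sham or in their average. In the average of both their fitted ranges were 0.08 for Slc12a2, 0.11 for Kcnj16 and 0.11 for Kcnq1, and 0.16 for Kcnj10 and 0.19 for Bsnd. Kcnj10 was called in 2 other fits, in ADX when the 18 ADX libraries were fitted alone (edgeR adjusted p = 0.0425) and without sham CT20 replicate 2 (adjusted p = 0.0375 in sham and 0.00848 in the average of both). The test of the difference in rhythm between ADX and sham called 0 of the 8 genes and 0 genes in all (0%), with 805 genes (3.57%) and 0 of the 8 at an unadjusted p under 0.05, and 1 gene called by DESeq2. The difference in range, ADX minus sham, was -0.20 for Slc26a4 (95% interval -0.49 to 0.08), -0.13 for Esrrb (-0.44 to 0.18) and 0.03 for Kcne1 (-0.25 to 0.32).

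**Figure D3:**
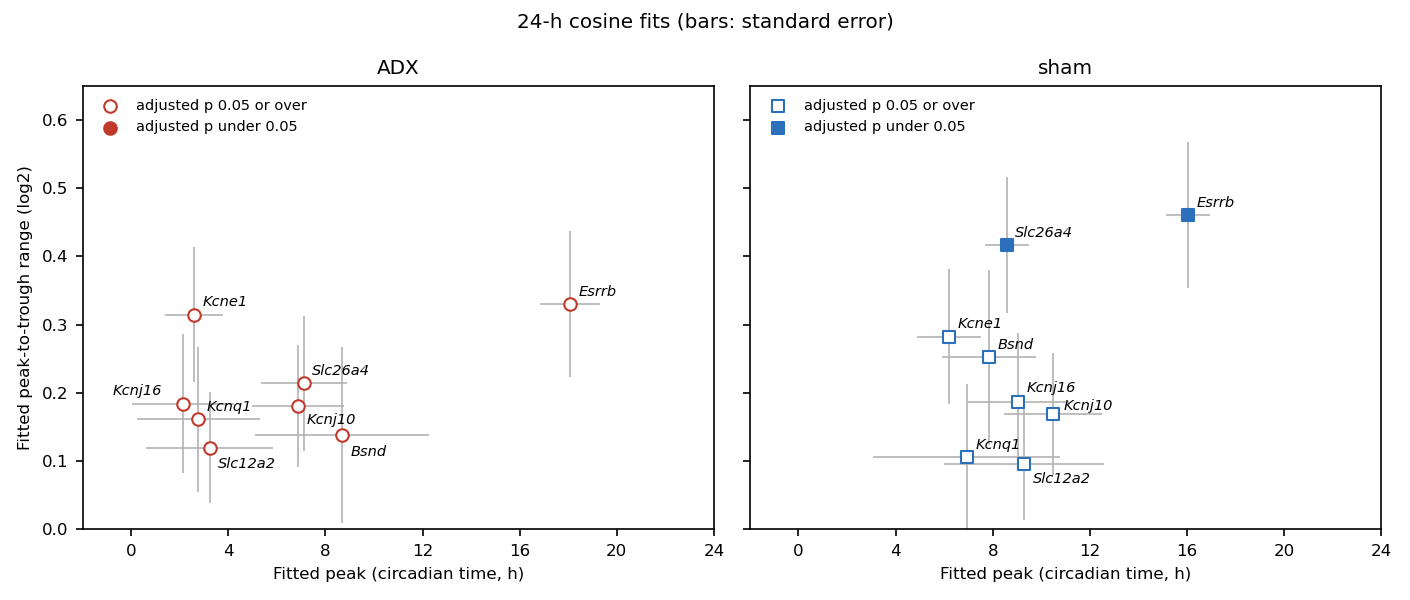
Fitted peak time and peak-to-trough range (log2) of the 24-h cosine of each gene in ADX (left) and sham (right), with bars of 1 standard error. Filled symbols have an edgeR adjusted p under 0.05, which holds for Slc26a4 and Esrrb in sham. Esrrb peaks at 18.1 h in ADX and 16.04 h in sham, apart from the other 7 genes, whose fitted peaks lie between 2.14 and 10.5 h. Open symbols are peaks of cosines that were not called, and peak times were not compared between genes by a test.

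A test for differences of any shape among the 6 times, which was not among the planned main tests, gave other counts. In ADX it called 1 of the 8 genes, Esrrb (edgeR adjusted p = 0.00391), beside 9.68% of all genes. In sham it called 6 of the 8, all but Kcnj16 and Slc12a2, beside 16.19% of all genes. In the mean of both statuses it called the same 6, beside 33.2% of all genes. The genes other than Esrrb varied together between libraries, so these calls are not independent. The share among genes of a like level was not counted. The edgeR adjusted p in sham was 0.000443 for Esrrb, 0.000972 for Slc26a4 and 0.00637 for Kcne1. It was 0.0146 for Bsnd, 0.0308 for Kcnq1 and 0.0329 for Kcnj10.

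The group means show where these differences lay. In ADX the means of CT12 and CT16 were 9.64 ± 1.70 and 8.33 ± 0.394 CPM for Bsnd and 334 ± 15.11 and 318 ± 5.73 CPM for Kcnj10 (SD, n = 3). Of the 7 genes other than Esrrb, Bsnd alone had its highest ADX mean at CT12. Bsnd and Slc26a4 had their lowest ADX mean at CT16. Kcnj16, Kcnq1 and Kcne1 had theirs at CT12 (139, 44.7 and 116 CPM), and Kcnj10 and Slc12a2 at CT20. In sham, 6 of the 7 genes other than Esrrb had their highest mean at CT12, and 7 of 7 had their lowest at CT16. The share of all genes with their highest or lowest sham mean at these times was not counted. The 7 genes varied together in sham (r of 0.711 to 0.944), so these counts are not independent. Without sham CT12 replicate 1, which was left out after seeing the data, 1 of the 7, Slc26a4, had its highest sham mean at CT12, and 7 of 7 still had their lowest at CT16. With all libraries, sham Bsnd averaged 11.5 ± 2.06 CPM at CT12 and 7.53 ± 0.336 CPM at CT16, and Kcnj10 averaged 402 ± 65.9 and 308 ± 28.5 CPM (SD, n = 3). The sham mean of CT12 holds the library with the highest levels of the series. Without it the sham adjusted p was 0.0915 for Kcnj10. Leaving out each of the 3 CT16 libraries of sham gave an adjusted p of 0.117, 0.0761 and 0.0754 for Kcnq1. For Kcnj10 it was 0.0965 without replicate 2, 0.0764 without replicate 3 and 0.0514 without CT24 replicate 2. For Bsnd it was 0.0593 without CT16 replicate 1. Without the 5 libraries of high Gh, which leaves 1 library at sham CT08, the adjusted p was 0.0682 for Kcne1, 0.101 for Kcnq1 and 0.103 for Kcnj10. In the mean of both statuses, Kcnj10 (adjusted p = 0.0492) was not called in 23 of the 36 fits that left out 1 library and Kcnq1 (adjusted p = 0.0432) in 10, with adjusted p up to 0.107 without sham CT16 replicate 2 and 0.112 without sham CT16 replicate 1. Esrrb and Slc26a4 passed in sham in all 36 fits that left out 1 library, and without the libraries of high Gh.

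**Figure D4:**
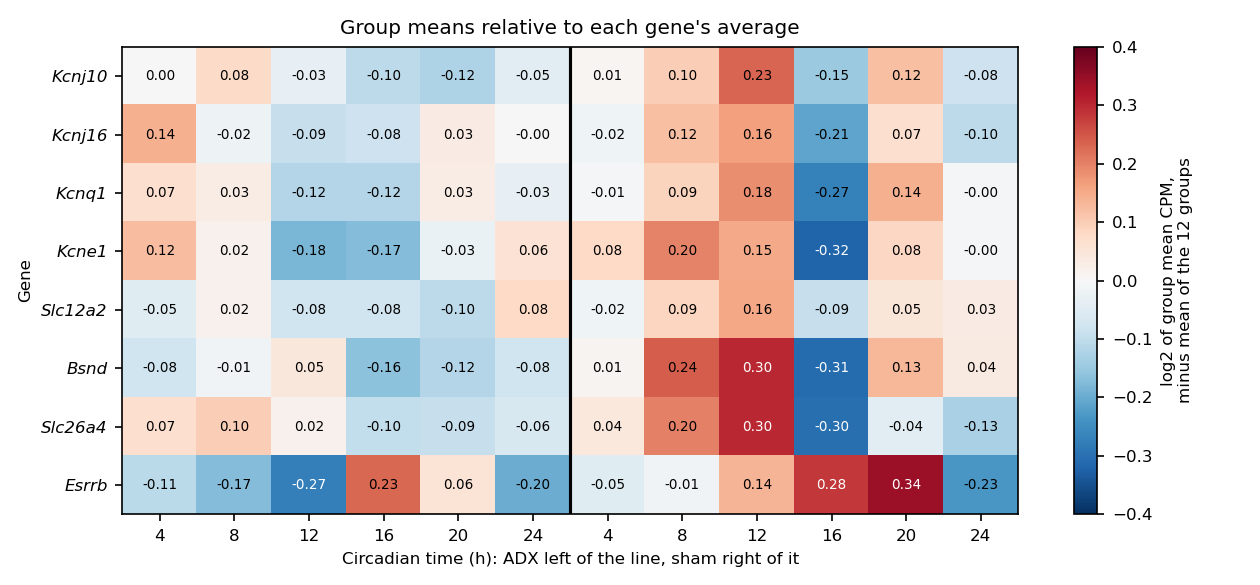
Mean CPM of each group on the log2 scale relative to the mean of that gene's 12 group values, ADX left of the line and sham right of it, by circadian time. Within sham, the 7 genes above Esrrb are lowest at CT16, with values down to -0.32 for Kcne1, while Esrrb is highest at CT16 in ADX (0.23) and at CT20 in sham (0.34).

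The spread of the 18 libraries was larger in sham than in ADX for 8 of 8 genes, beside 56.8% of all genes, as for Kcnj10 with 333 ± 20.9 CPM in ADX and 352 ± 47.3 CPM in sham (SD, n = 18 each). Without sham CT12 replicate 1 it was larger in sham for 6 of the 8, beside 54.8% of all genes. The genes other than Esrrb varied together between libraries, so these counts are not independent.

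The fourth comparison asked whether the 8 genes vary together between libraries. The 7 genes other than Esrrb did. Their 21 pairs had Pearson r of 0.623 to 0.899 over 36 libraries (median 0.721), and Spearman rho of 0.587 to 0.865, on log2(CPM + 0.5). The highest r was that of Kcnq1 and Kcne1, the subunits of 1 channel (r = 0.899). A two-sided permutation test with 100000 resamples, adjusted over the 28 pairs, gave an adjusted p of at most 6.7e-05 for r and 3.6e-04 for rho over these 21 pairs. Without the 2 libraries farthest from the median of the first gene of a pair, r was 0.506 to 0.898. Values of 1 library share its depth, its dissection and its scaling. The share of pairs of other genes that pass this test was not counted. The numbers of passing pairs, here and below, are therefore not shown to be particular to these genes.

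Esrrb did not follow the other genes across libraries. Its 7 pairs had r of 0.026 to 0.256 and rho of 0.049 to 0.272, and 0 of 7 passed the permutation test for r (0 of 7 for rho). On deviations from the 12 group means, its r with the others was 0.634 to 0.802 and all 28 pairs passed. Between the 12 group means, r was -0.21 to 0.064 for the pairs with Esrrb and 0.573 to 0.909 for the other 21. Esrrb varied with the other genes among libraries of the same status and time, and not between the group means.

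Within ADX the 21 pairs without Esrrb had r of 0.323 to 0.881 (median 0.547, n = 18), and within sham 0.711 to 0.944 (median 0.834, n = 18). The difference between these values was not tested. Over all 36 libraries the 21 pairs passed also without the 3 muscle-high libraries and without the 5 of high Gh. The mean centred log2 level of 6 spiral ligament fibrocyte markers, none of them among the 8 genes, had r = 0.672 with that of the 7 genes, and the 9 skeletal muscle markers had r = -0.158. The same r was 0.297 for 7 intermediate cell, 0.588 for 3 basal cell and 0.504 for 6 supporting cell markers. It was 0.331 for 6 hair cell, 0.329 for 5 neuron, 0.398 for 4 Schwann cell and 0.253 for 6 osteoblast markers, and -0.244 for 6 erythroid, -0.275 for 7 neutrophil and -0.435 for 5 B lymphocyte markers. Marginal cell markers (r = 0.849) and root and spindle cell markers (r = 0.683) include some of the 7 genes. The 6 fibrocyte markers summed to 6699 to 8636 CPM in ADX and 6518 to 9361 CPM in sham, none was at 0, and their part in the co-variation was not tested.

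**Figure D5:**
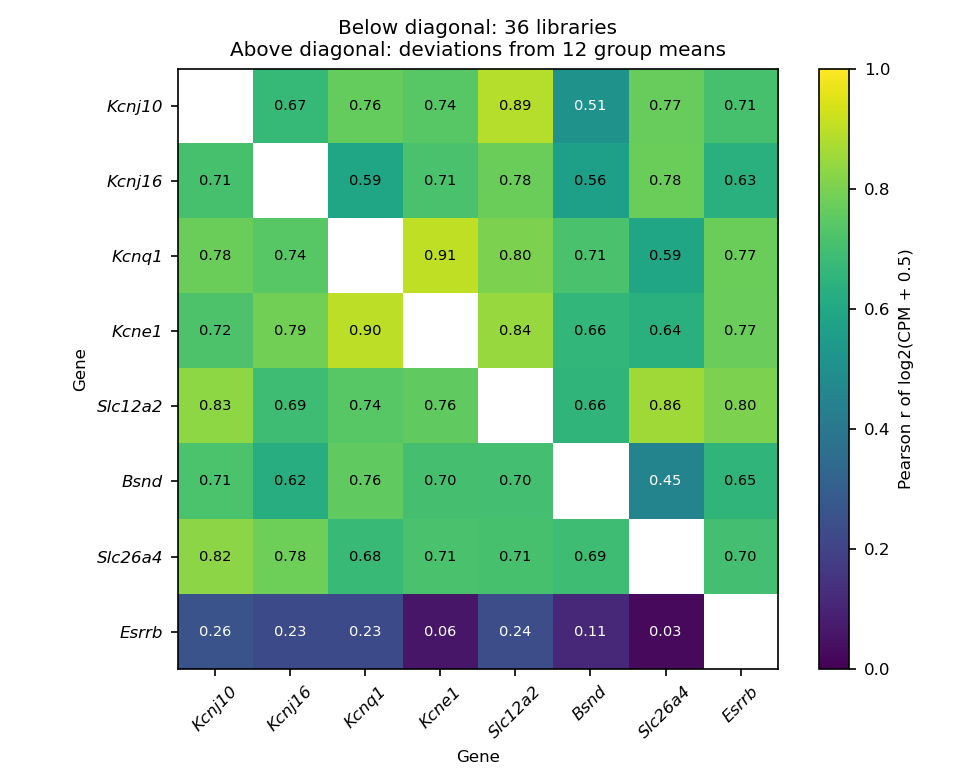
Pearson r of log2(CPM + 0.5) between the 8 genes, below the diagonal over 36 libraries and above it on deviations from the 12 group means. The bottom row shows Esrrb with r of at most 0.256 over the libraries, and the last column shows it with r of at least 0.634 within groups.

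The genes most like the 8 were ranked by their r with the mean of the 8 genes over 36 libraries, among 17711 genes of at least 1 CPM, as a description. Among the 10 highest were Prom2 (r = 0.928), Dnase1 (r = 0.924), Lrp2 (r = 0.909), which encodes the endocytic receptor megalin of marginal cells, and Slc45a2 (r = 0.908), a pigment cell transporter. Lower in the order were Gas2 (r = 0.906), Mcoln3 (r = 0.899), Lrpap1, a chaperone of megalin (r = 0.894), Slc44a3 (r = 0.891) and Hpse (r = 0.89).

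By single gene, Kcnq1 and Kcne1 were each other's nearest neighbour among these genes (r = 0.899). Kcnj10 was most like Dnase1 (r = 0.926), Hpse (r = 0.926) and Lrpap1 (r = 0.902), and Kcnj16 most like Skp1a (r = 0.946), Cnmd (r = 0.915) and Gas2 (r = 0.911). Slc12a2 was most like Slc44a3 (r = 0.853), Iqgap2 (r = 0.853) and Slc45a2 (r = 0.837). Bsnd was most like Meltf (r = 0.867), Rufy4 (r = 0.829) and Lmx1a (r = 0.813), and Slc26a4 most like Tmem79 (r = 0.916), Aif1l (r = 0.896) and Slc51a (r = 0.884). After each other, Kcnq1 had Prom2 (r = 0.851) among its nearest genes, and Kcne1 was most like Rnase1 (r = 0.825) and Rarres1 (r = 0.823). Esrrb had other neighbours, Hdlbp (r = 0.841), Mall (r = 0.838) and Hspa4l (r = 0.827).

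The rest of the machinery was followed through 51 further genes of endolymph ion transport and strial structure, all of which passed the filter. None passed the test of ADX against sham in edgeR, beside 0.718% of all genes. At an unadjusted p under 0.05 there were 10, beside 15.6% of all genes. The log2 fold change was negative for 35, beside 49.3% of all genes (median -0.03 over the 51, beside 0.00114 over all genes). For Atp1b2, a Na,K-ATPase subunit, the log2 fold change was -0.08 (adjusted p = 0.333). Car2, a carbonic anhydrase, had -0.17 (adjusted p = 0.124). The related receptors Esrra and Esrrg had log2 fold changes of 0.01 (adjusted p = 0.916) and 0.09 (adjusted p = 0.43).

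Over the circadian day, 12 of the 51 genes had a called cosine in the average of both statuses, beside 32.5% of all genes tested. A cosine was called for 5 in ADX, beside 9.4% of all genes, and for 8 in sham, beside 16.08%. The 5 were called in both. The test of the difference in rhythm called 0 of the 51. Of the 6 kinases that regulate NKCC1, 4 were called. Wnk4 had a range of 0.40 in ADX and 0.56 in sham with a shared peak at 10.7 h (edgeR adjusted p of the average = 1.15e-05). Wnk1 peaked at 19.9 h with a range of 0.17, Wnk2 at 11.7 h with 0.32, and Oxsr1 at 15.06 h with 0.08. Car14, a membrane-bound carbonic anhydrase, had the widest range of the 12, 0.53 in ADX and 0.80 in sham, with a shared peak at 13.4 h (adjusted p = 1.04e-06).

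Cldn11, the tight junction protein of the basal cells, had a range of 0.44 in ADX and 0.51 in sham and peaked at 10.5 h (edgeR adjusted p = 1.62e-05). The potassium and chloride cotransporters Slc12a4 and Slc12a7 peaked at 15.03 h (adjusted p = 4.82e-05) and 8.79 h (adjusted p = 0.00085). The 12 also included the chloride channel gene Clcn2, with a peak at 9.24 h, and Esrra at 14.4 h. The call of Esrra was kept in 9 of the 36 fits that left out 1 library (adjusted p 0.0352 to 0.105) and that of Oxsr1 in 17 (adjusted p 0.0152 to 0.0874). The test for differences of any shape called 5 of the 51 in ADX (beside 9.68% of all genes), 11 in sham (beside 16.19%) and 14 in the mean of both (beside 33.2%). Of the genes that no cosine test called, it called Kcne2 in sham (edgeR adjusted p = 0.0117) and Kcne3 in sham (0.0476) and in the mean of both (0.0385), both accessory subunits of potassium channels. Kcne2 had a low mean level, 0.685 CPM, and was not called in the mean of both (edgeR adjusted p = 0.201). In the mean of both the test also called Atp1b2 (edgeR adjusted p = 0.0359) and the transcription factor genes Tbx18 (0.033), Sox10 (0.0386) and Pou3f4 (0.0424).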

How the data were processed

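Messenger RNA of whole cochleae was sequenced as strand-specific libraries, per the labels' protocols. STAR 2.4.0i and the mouse build mm10 come from the submitters' processing notes. The authors deposited 1 table of whole-number counts per Ensembl gene for 39017 genes, not normalized, with a gene length column (unit other, in bases). No source used here names the counting program or its strand setting. Each of the 36 columns was matched to its sample by status, replicate number and time; 30 column names give a time 1 h earlier than the labels, and the labels' times were used. Of the gene IDs, 37607 (96.4%) matched a symbol in GENCODE M21.

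The counts were scaled by TMM (factors 0.981 to 1.03) and 16461 low genes, holding 0.0779% of the counts, were left out by edgeR's filterByExpr. edgeR 4.0.16 (R 4.3.3, limma 3.58.1) fitted quasi-likelihood models to all 36 libraries, one with 12 group means (24 residual degrees of freedom) and one with a mean and a 24-h cosine per status. P-values were adjusted by Benjamini-Hochberg over 22556 genes at a threshold of 0.05. Peak-to-trough ranges are sizes and so are above 0 for every gene. The fits were tested on simulated data. Correlations used permutations in scipy 1.17.1. Alternatives were DESeq2 1.42.0, its size factors in edgeR, no filter, a replicate block, left-out libraries, covariates, times of the column names and fits of 1 status. The tests of any difference between times were not among the planned main tests, and their fits under these alternatives were added after seeing the data.

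The members and the lists of pathway and marker genes were chosen with earlier results of these data known. Named genes were the 8 members, pathway genes that passed a test over all genes, up to 4 others per pathway group by level, the 10 genes most correlated with the mean of the 8, and the 3 most correlated with each. Some genes that this rule names are not reported here.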

Additional observations from a re-analysis of the deposited data

Results flagged for a closer look

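Bsnd is given here because its ADX and sham libraries did not overlap at 3 of the 6 times and not in 1 direction: all 3 ADX libraries were lower at CT08 and CT20 and higher at CT16. Slc26a4 is given for the same reason at 2 times, with ADX wholly lower at CT12 and wholly higher at CT16. The difference between times was tested as an interaction, and that test called neither gene (edgeR adjusted p = 0.989 for Bsnd and 0.969 for Slc26a4). At a single time, 3.93% to 7.1% of all genes had ADX wholly on the stated side of sham. That share is for 1 side at 1 time. The share of all genes without overlap at 2 or 3 of the 6 times was not counted, so these patterns are not shown to be rare.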

How the results depend on the processing

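The count of genes called between ADX and sham was 162, and 630 with DESeq2 and 11 without the 5 libraries of high Gh. It was 21 to 302 when 1 library was left out, lowest without ADX CT24 replicate 1 and highest without sham CT20 replicate 1, so the share of all genes beside the members' count moves as much; the cause was not tested. DESeq2 called 6 genes for the interaction and 1 for the difference in rhythm, where edgeR called 0. Leaving out 1 library gave 0 for the interaction in every fit, and for the difference in rhythm 0 to 1, with 1 without sham CT16 replicate 3. The cosine called 2120 genes in ADX, 1411 with no filter on low counts (more genes tested), and 1334 to 2430 with 1 library left out. In sham it called 2711 to 4131 with 1 library left out (3628 with all) and in the average of both 6654 to 7652 (7331 with all). The test of any difference between times called 2183 genes in ADX and 3652 in sham, 1426 and 2299 without the libraries of high Gh (fewer samples), and 1333 to 2513 and 2712 to 3953 with 1 library left out. For the mean of both it called 7495 genes (6457 to 7926). The log2 fold change of Kcnj16 changed sign, to 0.014 without the libraries of high Gh, and lay between -0.030 and 0.011 with 1 library left out, positive in 10 of 36 fits. The calls of Esrrb, Slc26a4 and Kcne1 in the average of both statuses held in all 36 of these fits.

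With the replicate number as a block, 152 genes were called between ADX and sham, 0 for the interaction, 1996 in ADX, 3415 in sham, 7110 in the average of both and 0 for the difference in rhythm. The block ended the call of any difference in the mean of both statuses for Kcnj10 (adjusted p = 0.0563) and Kcnq1 (adjusted p = 0.052) and changed no other call of the 8 genes. Among the pathway genes named, it also ended the call of Esrra in the average of both (adjusted p = 0.0558). Deviations of same-numbered libraries had correlations of -0.214 to 0.173 over 18 pairs, 3 of them over 0.1, so the numbers are not treated as pairs.

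Bsnd, at 172 to 305 counts per library, is the gene of the 8 where depth limits precision most. Libraries with muscle or pituitary RNA fall unevenly over the groups, and 3 libraries per group leave single times with little precision.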
